A study of Mus musculus with 4 samples.

Results

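The transcripts of 8 genes in wide use as markers of pericytes were examined in fetal mouse lungs, namely *Cspg4*, *Rgs5*, *Kcnj8*, *Abcc9*, *Cox4i2*, *Higd1b*, *Mcam* and *Ndufa4l2*. They were picked by name, with earlier results of these data known. They were located by gene symbol in the table of counts, where they make up 8 of 45706 genes. The study traced a recessive lung phenotype from a screen with the mutagen ENU to *Myh10*, the gene of the heavy chain of non-muscle myosin II-B, and compared the transcriptomes of both genotypes. RNA-seq was performed on the left lung lobes of 2 wild-type (*Myh10*+/+) and 2 mutant (*Myh10*-/-) C57BL/6 embryos at E17. The mutants are homozygous for the missense allele L458R in every cell of the body, and whole lobes were used with no cell type sorted.

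Pericytes are mural cells embedded in the basement membrane of capillaries, where they touch the endothelium, stabilize the vessel wall and, in the lung, line the growing septa. Endothelial PDGF-B recruits them through the receptor PDGFR-β, and angiopoietin, Notch, TGF-β and sphingosine-1-phosphate signals act between the same cells. No marker in use is exclusive to them, since vascular smooth muscle, heart muscle, endothelium and glial precursors share some of these genes. The comparison asks whether the RNA of these genes differed between genotypes.

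The lungs yielded 23156026 and 19116971 counted reads in *Myh10*+/+ and 27573824 and 32055306 in *Myh10*-/-, listed here and throughout as lung 1 and lung 2 of each genotype. Values are CPM, counts scaled by TMM to a common library size, and fold changes are *Myh10*-/- over *Myh10*+/+. The test of genotype was edgeR's quasi-likelihood test on the 18763 genes that averaged 5 counts or more, and a gene was called at a Benjamini-Hochberg adjusted p under 0.05. The p-values measure the spread between 2 lungs per genotype. The 95% intervals given are not adjusted for the number of genes.

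The lung markers *Nkx2-1* (434 and 455 CPM in *Myh10*+/+, 455 and 448 CPM in *Myh10*-/-) and *Sftpc* (5815 and 5630 CPM, then 3876 and 4750 CPM) were abundant in each of the 4 lungs. *Myh10* itself had 505 and 504 CPM in *Myh10*+/+ and 539 and 513 CPM in *Myh10*-/-, a log2 fold change of 0.06 (adjusted p = 0.662), and a missense allele need not change its count. *Xist*, expressed from the inactive X chromosome of females, was high in *Myh10*+/+ lung 1 (3916 CPM) and *Myh10*-/- lung 2 (4457 CPM). The Y-linked gene *Ddx3y* was high in *Myh10*+/+ lung 2 (182 CPM) and *Myh10*-/- lung 1 (198 CPM), so that each genotype held 1 lung of each pattern.

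All 8 markers were detected in every lung and passed the count minimum, the lowest count being 352 reads of *Kcnj8* in *Myh10*-/- lung 1. Their presence does not go against the label, although other cells of the lung express some of them too. Of the 8 markers, 1 was called lower (*Ndufa4l2*), against 1.34% of all genes tested, and 0 were called higher, against 0.298%. At an unadjusted p under 0.05, 5 were lower, against 9.02% of all genes, and 0 were higher, against 7.52%. The log2 fold change was negative for all 8, with a median of -0.24, while it was negative for 49.5% of all genes, with a median of 0.00. All 8 were negative in each of 14 fits, which comprise this one and those with other scalings, filters, tests, blocks or lungs. Both mutant lungs lay below both wild-type lungs for all 8 markers, a separation that 24.3% of all genes showed in this direction and 23.9% in the other. Scaled by library totals, 5 markers were separated in this way, against 20.7% of all genes, and *Higd1b*, *Rgs5* and *Cspg4* overlapped. The separation was not particular to the markers. With TMM it held for 7 of 7 tested cardiac muscle genes, 8 of 10 lung epithelium genes and 7 of 10 targets of hypoxia-inducible factor. It held for 2 of 12 smooth muscle genes and 2 of 12 fibroblast genes.

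Among all genes tested, 252 were called lower and 56 higher, and scaling by library totals gave 234 lower and 112 higher. In bulk RNA, fewer pericytes and less RNA per pericyte cannot be told apart.

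**Figure D1:**
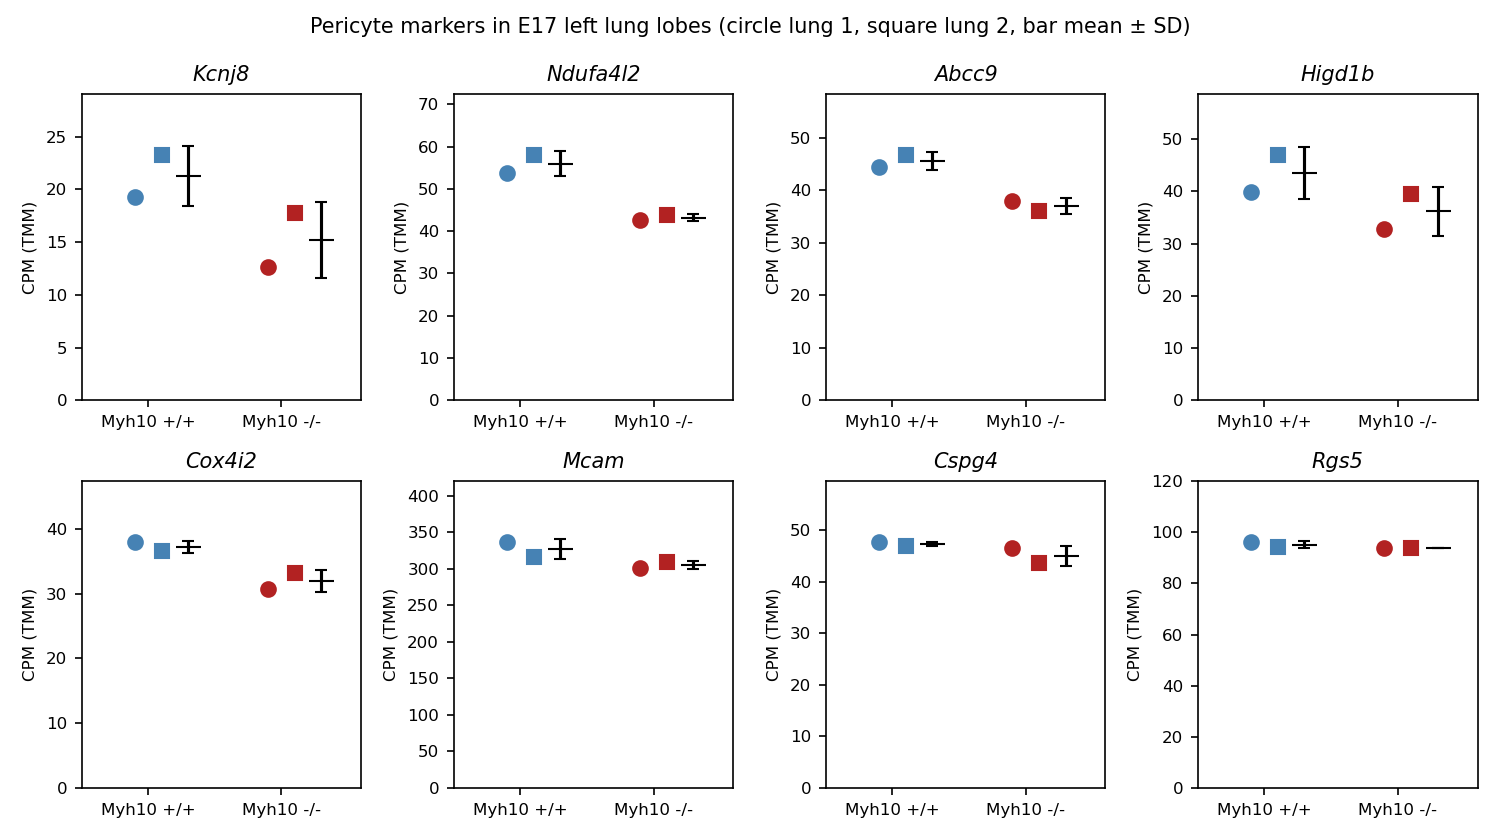
CPM (TMM-scaled, vertical axes from 0) of the 8 pericyte markers in *Myh10*+/+ (blue) and *Myh10*-/- (red) left lung lobes at E17, with a circle for lung 1, a square for lung 2 and a bar for the mean ± SD of 2 lungs. *Ndufa4l2* lies at 53.8 and 58.0 CPM in *Myh10*+/+ and at 42.6 and 43.8 CPM in *Myh10*-/-, while the lungs of both genotypes lie between 93.7 and 96.0 CPM for *Rgs5*.

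*Ndufa4l2*, *Cox4i2* and *Higd1b* are tied to mitochondria. *Ndufa4l2* encodes a mitochondrial protein related to NDUFA4 that is induced by hypoxia-inducible factor (HIF) and lowers respiration. It had 53.8 and 58.0 CPM in *Myh10*+/+ lungs and 42.6 and 43.8 CPM in *Myh10*-/- lungs. The mutant lungs lay close together and well below both wild-type lungs. Its expression fell by 0.37 on the log2 scale (SE 0.08, 95% interval -0.54 to -0.21, adjusted p = 0.0326), which is 22.7% lower. The call was lost without *Myh10*+/+ lung 2 (log2 fold change -0.32, adjusted p = 0.201) and passed in 10 of 10 fits with 4 lungs (adjusted p of the alternatives from 0.0016 to 0.0372) and in 3 of 4 fits with 3 lungs. *Ndufa4l2* (ENSMUSG00000040280) lies on chromosome 10 from 127514967 to 127517154 (GRCm38), and 32 bp of its exons overlap *Shmt2* on the opposite strand.

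*Cox4i2* encodes the alternative isoform of subunit IV of cytochrome c oxidase, which is prominent in the lung and responds to low oxygen. It was counted at 37.9 and 36.6 CPM in *Myh10*+/+ and at 30.8 and 33.2 CPM in *Myh10*-/-. Both mutant lungs were lower, with a gap between genotypes larger than the gap between lungs of a genotype. The log2 fold change was -0.22 (SE 0.08, 95% interval -0.39 to -0.05) and did not pass the test (adjusted p = 0.175), except without *Myh10*-/- lung 2 (adjusted p = 0.027, between 0.027 and 0.566 over the fits with 3 lungs). The gene (ENSMUSG00000009876) is on chromosome 2 from 152754173 to 152765037.

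*Higd1b* belongs to the family of proteins with a hypoxia-induced domain. Its values were 39.9 and 47.0 CPM in *Myh10*+/+ and 32.9 and 39.5 CPM in *Myh10*-/-. *Myh10*-/- lung 2 came close to *Myh10*+/+ lung 1, and the lungs of each genotype lay about as far apart as the genotype means. The log2 fold change was -0.26 (SE 0.10, 95% interval -0.49 to -0.04, adjusted p = 0.224). It passed without *Myh10*+/+ lung 1 (log2 fold change -0.38, adjusted p = 0.0491) and without *Myh10*-/- lung 2 (-0.40, adjusted p = 0.00324). It was -0.14 without *Myh10*+/+ lung 2 and -0.13 without *Myh10*-/- lung 1, with an adjusted p of up to 0.785. *Higd1b* (ENSMUSG00000020928) lies on chromosome 11 from 102835849 to 102838040, the chromosome of *Myh10*, at a distance of 34.02 Mb.

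*Kcnj8* and *Abcc9* encode both parts of the vascular ATP-sensitive potassium channel, the pore and its sulfonylurea receptor, which couple the energy state of the cell to its membrane potential. They are neighbours on the minus strand of chromosome 6, *Kcnj8* (ENSMUSG00000030247) from 142564837 to 142571614 and *Abcc9* (ENSMUSG00000030249) from 142587862 to 142702315, with 16247 bp between them. *Kcnj8* had 19.3 and 23.3 CPM in *Myh10*+/+ and 12.7 and 17.7 CPM in *Myh10*-/-. Relative to its level it was the marker whose lungs differed most within a genotype, although the genotypes did not overlap. Its log2 fold change of -0.47 (SE 0.14, 95% interval -0.77 to -0.18) was the lowest of the 8 and did not pass the test (adjusted p = 0.111). The value depended on the lungs, at -0.74 without *Myh10*-/- lung 2 (adjusted p = 4.5e-05) and -0.26 without *Myh10*-/- lung 1, where *Ndufa4l2* and *Abcc9* were lower. It also passed without *Myh10*+/+ lung 1 (adjusted p = 0.0119), and the highest adjusted p with 3 lungs was 0.423. It passed in 2 of 10 fits with 4 lungs, with the lowest adjusted p (9.7e-05) when no filter on low counts was used and the highest at 0.115.

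*Abcc9* was counted at 44.4 and 46.7 CPM in *Myh10*+/+ and at 38.0 and 36.0 CPM in *Myh10*-/-. The lungs of each genotype lay close together and the mutant lungs were lower. The log2 fold change was -0.30 (SE 0.08, 95% interval -0.47 to -0.13) with an adjusted p of 0.0753. It passed in 4 of 10 fits with 4 lungs, among them those with robust dispersions (adjusted p = 0.0425), with no filter (adjusted p = 0.0232) and without the genes of chromosomes X, Y and MT (adjusted p = 0.042), the highest value with 4 lungs being 0.086. With 3 lungs it passed without *Myh10*-/- lung 2 (adjusted p = 0.0421) and reached 0.411 with another lung left out. *Abcc9* overlaps 158 bp of *5330439B14Rik* on the opposite strand, and 100 of its 8518 windows of 75 bases (1.17%) occur in transcripts of other genes. The windows of the other 7 markers occurred in no other gene. Per kilobase of exon, the ratio of the pore to its receptor was 1.43 and 1.64 in *Myh10*+/+ lungs and 1.09 and 1.62 in *Myh10*-/- lungs, so the genotypes overlapped and *Myh10*-/- lung 1 was lowest.

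*Rgs5* encodes a GTPase-activating protein that shortens signalling by G-protein-coupled receptors and is among the most used pericyte genes. It showed 96.0 and 94.3 CPM in *Myh10*+/+ and 93.9 and 93.7 CPM in *Myh10*-/-. The lungs were nearly level, and the genotype means differed by less than the wild-type lungs did from each other. The log2 fold change was -0.02 (SE 0.06, adjusted p = 0.895), with a 95% interval of -0.14 to 0.10. The interval spans from 9.4% lower to 7.2% higher. The gene (ENSMUSG00000026678) lies on chromosome 1 from 169655501 to 169695813.

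*Cspg4* and *Mcam* encode surface proteins, the proteoglycan NG2 and the adhesion molecule CD146. *Cspg4* was counted at 47.6 and 47.0 CPM in *Myh10*+/+ and at 46.4 and 43.7 CPM in *Myh10*-/-, and *Myh10*-/- lung 1 was within a small margin of the wild-type lungs. Its log2 fold change was -0.07 (SE 0.07, 95% interval -0.23 to 0.09, adjusted p = 0.689). *Mcam* had 336 and 317 CPM in *Myh10*+/+ and 302 and 309 CPM in *Myh10*-/-. Its mutant lungs were lower by little more than the distance between replicate lungs. The log2 fold change was -0.10 (SE 0.05, 95% interval -0.21 to 0.01, adjusted p = 0.357). Both lie on chromosome 9, *Cspg4* (ENSMUSG00000032911) from 56865033 to 56899870 and *Mcam* (ENSMUSG00000032135) from 44134469 to 44142727, and 17 bp of *Mcam* overlap *Gm10687* on the opposite strand.

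Levels of the markers were compared per kilobase of exon. *Mcam* was the most abundant at a mean of 94.3 CPM per kb, followed by *Higd1b* (47.0), *Ndufa4l2* (45.3), *Cox4i2* (43.9), *Rgs5* (20.8), *Kcnj8* (7.15), *Abcc9* (4.93) and *Cspg4* (3.87). *Higd1b*, *Ndufa4l2* and *Cox4i2* did not differ beyond the spread of the lungs, their ranges being 38.8 to 55.5, 38.9 to 53.0 and 39.0 to 48.1 CPM per kb. The range of *Kcnj8* (4.97 to 9.13 CPM per kb) overlapped that of *Abcc9* (4.30 to 5.58), and the other neighbours in the order were separated. *Mcam* made up 49.4% of the summed CPM of the 8 markers. This sum was 675 and 670 CPM in *Myh10*+/+ lungs and 599 and 617 CPM in *Myh10*-/- lungs.

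To set the markers against each other without the scaling of the libraries, each was divided by *Rgs5* in the same lung. The count ratio of *Ndufa4l2* to *Rgs5* was 0.560 and 0.616 in *Myh10*+/+ and 0.454 and 0.468 in *Myh10*-/-. For *Abcc9* the ratio was 0.462 and 0.496, then 0.405 and 0.384. Both ratios were lower in both mutant lungs, as were those of *Kcnj8* (0.200 and 0.247, then 0.135 and 0.189) and *Cox4i2* (0.395 and 0.388, then 0.328 and 0.354). The ratio of *Mcam* to *Rgs5* was also separated (3.50 and 3.36, then 3.21 and 3.30), and that of *Higd1b* overlapped (0.416 and 0.499, then 0.350 and 0.421). That of *Cspg4* was separated by a very small margin (0.495 and 0.498, then 0.494 and 0.466), with lung 1 of both genotypes nearly level. Each separated ratio had a two-sided exact permutation p of 0.333, the smallest that 2 lungs against 2 can give, so the test could not reach 0.05 and the ratios are a description.

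Centred over the 4 lungs on a log2 scale, the mean profile of the 8 markers was 0.08 and 0.15 in *Myh10*+/+ and -0.16 and -0.07 in *Myh10*-/-. *Cox4i2* followed this profile most closely among the markers (root mean square difference 0.04) and *Kcnj8* least (0.20). Among 10971 other genes that averaged 250 counts or more, the most similar profiles over the 4 lungs were those of *F11r*, *Bex4*, *Cnp*, *Cds1* and *Sik1*, with root mean square differences of 0.0045, 0.0047, 0.0052, 0.0058 and 0.0077. These genes were selected on the same values of the 4 lungs, so no test of genotype is given for them. *F11r*, the gene of a junctional adhesion molecule, had 168 and 175 CPM in *Myh10*+/+ and 141 and 151 CPM in *Myh10*-/-. *Cnp* shares 154 bp of exon with *Dnajc7* on the opposite strand.

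A list of 18 other mural cell genes was examined beside the markers. None was called in edgeR as described above or in DESeq2, and at an unadjusted p under 0.05 in edgeR 6 were lower (9.02% of all genes) and 0 higher (7.52%). The median log2 fold change was -0.13, with 15 of 18 negative (49.5% of all genes) and 12 separated in the lower direction (24.3%). The most abundant per kb were *Gucy1a1* and *Gucy1b1*, the subunits of the soluble guanylate cyclase that senses nitric oxide, and *Postn*, the gene of the matrix protein periostin. *Gucy1a1* had 368 and 365 CPM in *Myh10*+/+ and 348 and 339 CPM in *Myh10*-/- (log2 fold change -0.10, adjusted p = 0.35), and *Gucy1b1* 182 and 184 CPM, then 171 and 171 CPM (-0.10, adjusted p = 0.308). *Postn* had 378 and 337 CPM, then 331 and 313 CPM (-0.15, adjusted p = 0.233). The mutant lungs were lower than the wild-type lungs for these 3 genes, by small margins. Without *Myh10*-/- lung 2, 4 of the list were called lower and 1 higher, where 965 of all genes were called lower and 861 higher. Without *Myh10*+/+ lung 2, 2 were called lower, where 162 of all genes were. With no filter on low counts edgeR called 4 lower, where 688 of 28549 genes were.

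**Figure D2:**
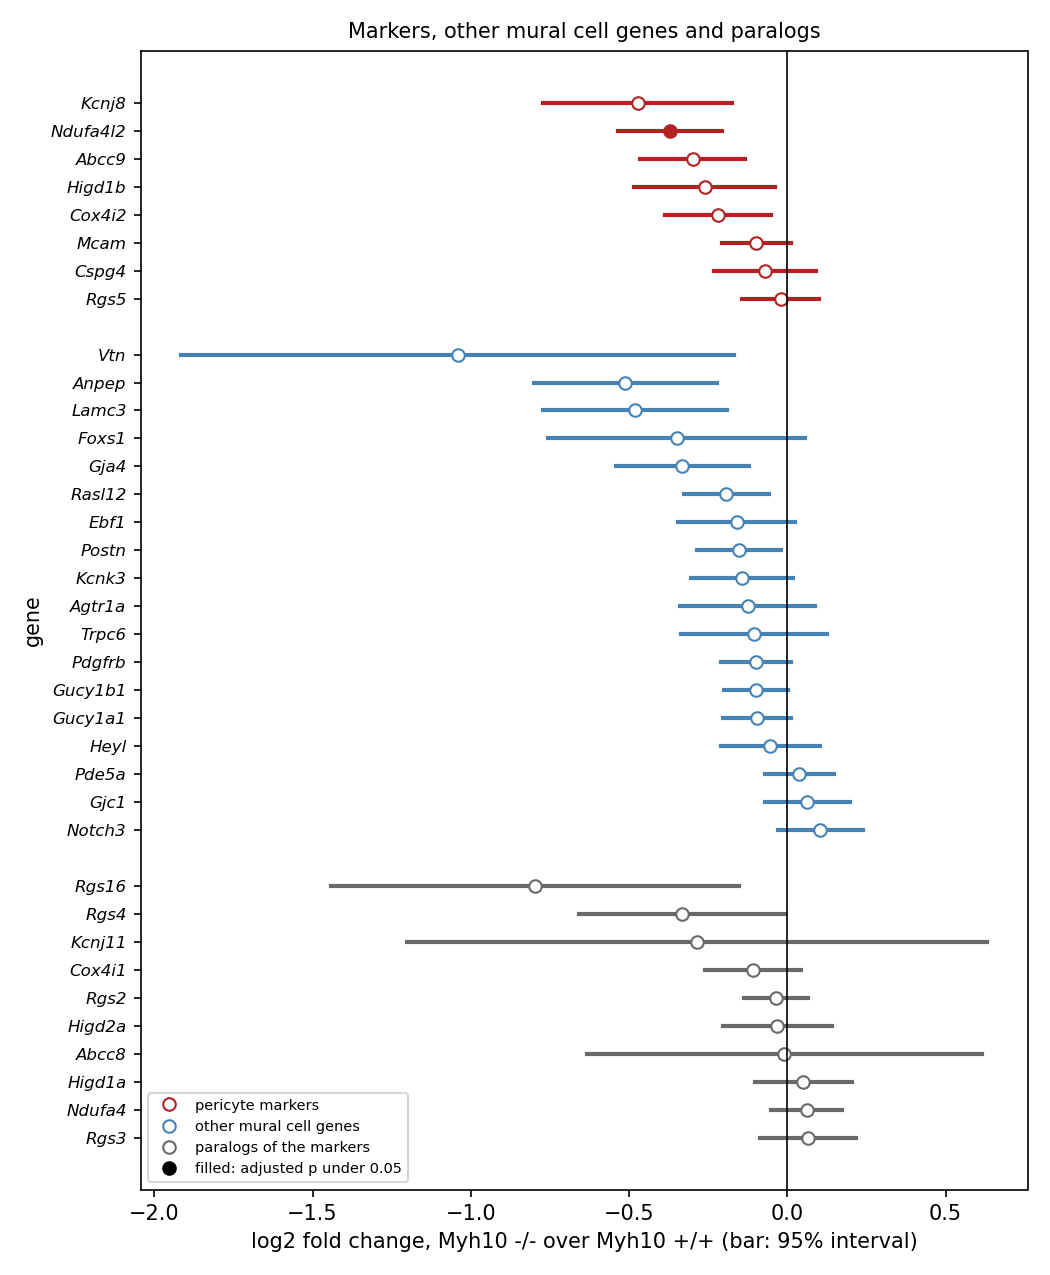
Log2 fold change of *Myh10*-/- over *Myh10*+/+ (horizontal axis) with its 95% interval for the 8 pericyte markers (red), 18 other mural cell genes (blue) and 10 tested paralogs of the markers (grey), where a filled point has an adjusted p under 0.05. *Ndufa4l2* at -0.37 is the one filled point, and the interval of *Rgs5* spans 0, from -0.14 to 0.10.

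Pericytes are drawn to vessels by signals, for which 17 genes were listed, mostly of ligands and receptors and some of them also on other lists. None was called in edgeR as described above or in DESeq2, with 5 lower (9.02% of all genes) and 1 higher (7.52%) at an unadjusted p under 0.05 in edgeR and a median log2 fold change of -0.03. Of the 17, 9 had a negative log2 fold change (49.5% of all genes) and 8 a positive one. With no filter edgeR called 2 lower, where 688 of 28549 genes were. With robust dispersions it called 1 lower, where 339 of 18763 genes were. Without chromosomes X, Y and MT it also called 1 lower, where 289 of 18114 genes were. Among the ligands, *Pdgfb*, named for its role after its values had been seen, had 73.0 and 77.9 CPM in *Myh10*+/+ and 60.0 and 67.0 CPM in *Myh10*-/-. Both mutant lungs were below both wild-type lungs, with a log2 fold change of -0.25 (95% interval -0.41 to -0.08, adjusted p = 0.125), the lowest of the 17. The ligand *Angpt1* of the receptor TIE2, also named after its values had been seen, went the other way, with 69.9 and 73.6 CPM, then 88.1 and 77.5 CPM (log2 fold change 0.21, 95% interval 0.04 to 0.37, adjusted p = 0.186). Both of its mutant lungs were above both wild-type lungs, and it shares 737 bp of exon with *Gm17473* on the opposite strand. *Pdgfrb*, the receptor of PDGF-B and the classical mural receptor, had 190 and 177 CPM, then 174 and 169 CPM (log2 fold change -0.10, 95% interval -0.21 to 0.01, adjusted p = 0.353).

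The other receptors named for their level were *Acvrl1*, the endothelial TGF-β family receptor ALK1, and *Ednra*, the endothelin receptor of mural cells. *Acvrl1* had 212 and 219 CPM in *Myh10*+/+ and 191 and 194 CPM in *Myh10*-/- (log2 fold change -0.16, adjusted p = 0.104). *Ednra* had 234 and 235 CPM, then 239 and 239 CPM (0.03, adjusted p = 0.807). The lungs were lower in the mutants for *Acvrl1* and nearly level for *Ednra*. Without *Myh10*-/- lung 2, 4 genes of this list were called lower and 3 higher, while among all genes tested 965 were called lower and 861 higher.

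Paralogs of the markers were examined because they do related work in other cells. Of 11 listed, 10 were tested and none was called in edgeR as described above or in DESeq2. At an unadjusted p under 0.05 in edgeR, 2 were lower (9.02% of all genes) and 0 higher (7.52%). With no filter 1 was called lower, where 688 of 28549 genes were. Calls rose both in this list and among all genes without *Myh10*-/- lung 2. *Higd1c* had 0 counts in the 4 lungs. *Cox4i1*, the common isoform of subunit IV, had 289 and 293 CPM in *Myh10*+/+ and 246 and 294 CPM in *Myh10*-/- (log2 fold change -0.11, adjusted p = 0.472), and *Ndufa4* had 162 and 160 CPM, then 161 and 174 CPM (0.06, adjusted p = 0.602). The genotypes overlapped for both. Per kb, *Ndufa4l2* made up 29.6% and 31.4% of the pair with *Ndufa4* in *Myh10*+/+ and 25.0% and 24.1% in *Myh10*-/-, which did not overlap. *Cox4i2* made up 20.5% and 19.7% of the pair with *Cox4i1*, then 19.7% and 18.2%, which lay close together in all 4 lungs.

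*Higd1a* and *Higd2a*, of the family of *Higd1b*, differed by 0.05 and -0.03 on the log2 scale, with adjusted p of 0.772 and 0.886, and 22.0% of the 75-base windows of *Higd1a* occur in other genes. *Kcnj11* and *Abcc8*, which form the channel of the pancreatic beta cell, were near the limit of detection, at no more than 0.578 and 1.40 CPM in any lung. Their log2 fold changes were -0.29 (95% interval -1.20 to 0.63) and -0.01 (95% interval -0.63 to 0.61), so wide that a change as large as that of *Kcnj8* lies within them. The log2 fold changes of the relatives of *Rgs5* were -0.04 for *Rgs2*, 0.07 for *Rgs3*, -0.33 for *Rgs4* (adjusted p = 0.291) and -0.80 for *Rgs16* (adjusted p = 0.198, 95% interval -1.44 to -0.15). *Rgs4* lies 45663 bp from *Rgs5*, and *Rgs16* was counted at 2.63 CPM or less.

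Smooth muscle shares *Rgs5*, *Mcam* and *Cspg4* with pericytes. Of 12 smooth muscle genes none was called in edgeR or DESeq2. At an unadjusted p under 0.05 in edgeR, 0 were lower (9.02% of all genes) and 0 higher (7.52%). Their summed CPM was 1614 and 1605 in *Myh10*+/+ and 1624 and 1592 in *Myh10*-/-, with *Mylk* the most abundant (47.5% of the sum). The sums overlapped. The log2 fold changes of *Acta2*, *Mylk* and *Tagln*, genes of smooth muscle actin, of the kinase of myosin light chain and of transgelin, were -0.12, 0.08 and -0.07, with adjusted p of 0.32, 0.66 and 0.622.

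The endothelium, which carries *Mcam*, had 1 of 12 genes called lower (1.34% of all genes) and 0 higher. At an unadjusted p under 0.05, 6 were lower (9.02% of all genes) and 1 was higher (7.52%). The higher gene, *Plvap*, named after its values had been seen, had 108 and 117 CPM in *Myh10*+/+ and 124 and 129 CPM in *Myh10*-/- (log2 fold change 0.17, adjusted p = 0.159). The gene called was *Cldn5*, a tight junction gene, with 116 and 123 CPM in *Myh10*+/+ and 87.4 and 101 CPM in *Myh10*-/- (log2 fold change -0.34, SE 0.07, adjusted p = 0.0379). The call was lost without *Myh10*+/+ lung 2. With no filter 2 genes of the list were called lower, where 688 of 28549 genes were. More of the list also passed without *Myh10*-/- lung 1 or lung 2, and without lung 2 calls rose among all genes too. The summed CPM was 2314 and 2327, then 2155 and 2146, lower in both mutant lungs, with *Cdh5* the most abundant (16.2%) and no gene at 0. *Cdh5* and *Egfl7* both had a log2 fold change of -0.09 (adjusted p = 0.455 and 0.459). The part of the endothelium in the values of the markers was not tested.

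Of 12 fibroblast genes none was called in edgeR as described above or in DESeq2. At an unadjusted p under 0.05 in edgeR, 1 was lower (9.02% of all genes) and 1 higher (7.52%). Their median log2 fold change was 0.02, and their summed CPM was 5667 and 5824 in *Myh10*+/+ and 5660 and 5534 in *Myh10*-/-. The lower wild-type lung lay just above the higher mutant lung, and *Col3a1* was the most abundant gene (27.5% of the sum). *Vim*, *Col3a1* and *Tcf21*, the most abundant per kb, differed by -0.16, 0.01 and -0.14 on the log2 scale, with adjusted p of 0.338, 0.973 and 0.266. Calls rose both in this list and among all genes without *Myh10*-/- lung 2.

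Glial precursors share *Cspg4*. Of 8 genes of glia and oligodendrocyte precursors, 5 passed the count minimum and none was called in edgeR as described above or in DESeq2. At an unadjusted p under 0.05 in edgeR, 1 was lower (9.02% of all genes) and 0 higher (7.52%). A call appeared without *Myh10*-/- lung 1. *Olig2*, which defines oligodendrocyte precursors, had 0 counts in the 4 lungs, and *Olig1* and *Foxd3* were below the minimum. *Erbb3*, which lung epithelium also expresses, made up 90.8% of the summed CPM of 144 and 142 in *Myh10*+/+ and 133 and 126 in *Myh10*-/-. The log2 fold changes were -0.16 for *Erbb3* (adjusted p = 0.166) and -0.25 for *S100b* (adjusted p = 0.76).

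Heart muscle, which lines the large pulmonary veins of the mouse, expresses *Abcc9* and *Kcnj8*. Of 8 cardiac muscle genes 7 were tested, of which 5 were called lower (1.34% of all genes) and 0 higher (0.298%). At an unadjusted p under 0.05 in edgeR, 7 were lower (9.02% of all genes) and 0 higher (7.52%). The summed CPM was 177 and 224 in *Myh10*+/+ and 136 and 124 in *Myh10*-/-, with *Myh6* the most abundant (28.7%), *Nppa* below the minimum and no gene at 0. The sums were lower in both mutant lungs, and the median log2 fold change was -0.65. Called lower were *Myh6*, the atrial myosin heavy chain (log2 fold change -0.73, adjusted p = 0.0117), and the myosin light chains *Myl7* (-0.65, 0.0127) and *Myl4* (-0.59, 0.0402). The troponin gene *Tnnt2* (-0.57, 0.0275) and the calcium release channel *Ryr2* (-0.44, 0.0155) were also called. Without *Myh10*+/+ lung 2, *Myh6* and *Ryr2* passed, and *Myl7* (adjusted p = 0.0519), *Myl4* (0.261) and *Tnnt2* (0.202) did not. The part of heart muscle in the values of *Abcc9* and *Kcnj8* was not tested.

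HIF induces *Ndufa4l2* in many cells. Of 10 other HIF targets 1 was called lower (1.34% of all genes) and 0 higher (0.298%), and 5 were lower at an unadjusted p under 0.05 (9.02%). The median log2 fold change was -0.17, and the summed CPM was 1346 and 1436 in *Myh10*+/+ and 1204 and 1261 in *Myh10*-/-, lower in both mutant lungs, with *Vegfa* the most abundant (44.0%). *Ankrd37*, which encodes a small ankyrin repeat protein, was the gene called, with 25.9 and 29.0 CPM in *Myh10*+/+ and 18.7 and 18.3 CPM in *Myh10*-/- (log2 fold change -0.57, SE 0.08, adjusted p = 0.00897). Its exons share 406 bp with genes on the opposite strand, and the strand setting of the counting is not given in the sources used here. The angiogenic ligand *Vegfa* and the glycolytic genes *Ldha* and *Pgk1* differed by -0.17, -0.17 and -0.20 on the log2 scale, with adjusted p of 0.223, 0.23 and 0.263. With no filter 3 of the targets were called lower, where 688 of 28549 genes were. More targets also passed without *Myh10*+/+ lung 1 and without *Myh10*-/- lung 2, and in the latter fit calls rose among all genes too. The part of HIF activity in the level of *Ndufa4l2* was not tested.

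Of 10 genes of the lung epithelium 5 were called lower (1.34% of all genes) and 0 higher (0.298%). At an unadjusted p under 0.05 in edgeR, 8 were lower (9.02% of all genes) and 0 higher (7.52%). The summed CPM was 9536 and 9303 in *Myh10*+/+ and 6708 and 7806 in *Myh10*-/-, lower in both mutant lungs, with *Sftpc* the most abundant (60.2%) and no gene at 0. Called lower were the alveolar type I genes *Ager* (log2 fold change -0.58, adjusted p = 0.00997) and *Hopx* (-0.41, 0.0394) and the surfactant gene *Sftpb* (-0.48, 0.00961). The keratin gene *Krt8* (-0.33, 0.00984) and *Cdh1* (-0.30, 0.0178), the gene of E-cadherin, were also called. *Sftpc* had a log2 fold change of -0.41 (adjusted p = 0.173). *Hopx*, which shares 412 bp of exon with *Hopxos* on the opposite strand, passed in 8 of 10 fits with 4 lungs. *Cdh1* was lost without *Myh10*+/+ lung 1 (adjusted p = 0.0985) and *Sftpb* without *Myh10*+/+ lung 2 (0.0807), and 8 of the list were called without *Myh10*-/- lung 2, where 965 of all genes were called lower, and with no filter, where 688 were. The part of the epithelium in the values of the markers was not tested.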

How the data were processed

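Per the labels and the methods of the study, the deposited values are raw counts of reads per gene that the authors obtained from 75-base single-end reads of stranded mRNA libraries, trimmed, aligned to GRCm38 with STAR 2.4.0a and counted on exons with featureCounts 1.5.1. The counts thus hold only reads that the authors could place at 1 position and assign to 1 gene. Whether counting used strand is not given in the sources used here, so genes with an overlapping gene on the other strand are uncertain. Besides those given with the results, these are *Acvrl1*, *Ednra*, *Cox4i1*, *Higd1a*, *Rgs16*, *Mylk*, *Tagln*, *Egfl7*, *Krt8*, *Myh6*, *Myl4*, *Olig1*, *Nppa* and *Xist*. *Gucy1a1*, *Egfl7*, *Col3a1*, *Foxd3*, *Xist* and *Higd1c* share exon bases with a gene on the same strand. For *Higd1c*, which had 0 counts, 470 of 612 exon bases are shared with *Methig1*. *Cox4i1*, *Rgs3*, *Rgs16* and *Higd1c* share sequence with another gene.

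Groups came from the sample labels. The counts were analysed in R 4.3.3 with edgeR 4.0.16 (TMM, glmQLFit with robust = FALSE, glmQLFTest, genotype as the only term) on the 18763 genes that averaged 5 counts or more, with Benjamini-Hochberg adjustment over all of them. The procedure was tested on simulated data. The 95% intervals are the log2 fold change plus or minus the t quantile times the standard error. Coordinates, exon lengths, exon overlaps and shared 75-base windows were taken from GENCODE M21. All 126 list entries were matched, 2 of them by Ensembl ID. Profiles were compared on log2(CPM + 0.1). Between replicate lungs, the chi-square per degree of freedom of the counts was 5.59 in *Myh10*+/+ and 9.27 in *Myh10*-/-. It was taken over all genes with a count, including *Xist* and *Ddx3y*, which differed strongly between the lungs of each genotype. The part of these values that is due to sex-linked genes was not computed. The number of lungs limits the precision.

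The genes named are the 8 markers, every member of the other 10 lists with an adjusted p under 0.05 and up to 3 members of each list with the most counts per kb, every paralog, the 5 genes with the most similar profile, and *Xist*, *Ddx3y* and *Myh10* as checks. *Nkx2-1* (as a check of the tissue), *Pdgfb*, *Angpt1*, *Plvap* and the genes given as at 0 or below the count minimum (*Olig1*, *Olig2*, *Foxd3* and *Nppa*) lie outside this rule and were added after their values had been seen. Of the genes this rule selects, 1 is not reported here. The members and lists were chosen with earlier results of these data known, and no list was tested as a set. Alternatives were DESeq2 size factors, library totals, no filter, filterByExpr, leaving out chromosomes X, Y and MT, robust dispersions, the Wald test of DESeq2 1.42.0, a replicate block, a threshold of 0.1 and leaving out each lung.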

Additional observations from a re-analysis of the deposited data

How the results depend on the processing

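The log2 fold changes of the 8 markers were negative in all 14 fits, and 0 markers were called higher under any alternative. These fits draw on the same lungs, so their signs are not independent. Against 252 genes called lower, 56 called higher and 1 marker called lower, scaling by library totals gave 112 higher genes, and the Wald test of DESeq2 gave 85. Without a filter 688 genes were lower, 474 higher and 3 markers called (*Abcc9*, *Kcnj8* and *Ndufa4l2*). Without chromosomes X, Y and MT 289 genes were lower, 90 higher and 2 markers called lower. With robust dispersions 339 genes were lower, 135 higher and 2 markers called lower, in both cases *Abcc9* and *Ndufa4l2*. An adjusted p threshold of 0.1 gave 473 lower and 223 higher genes, 2 markers, 2 other mural cell genes and 1 recruitment gene. The cause of the differences was not tested, apart from the looser threshold itself. With DESeq2 size factors or filterByExpr the counts stayed within 1.5 times.

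Leaving out each lung gave 162 to 965 lower genes, 29 to 861 higher genes, 0 to 5 called markers and median log2 fold changes of the markers from -0.27 to -0.15. No marker passed without *Myh10*+/+ lung 2, 3 passed without *Myh10*+/+ lung 1 and 5 without *Myh10*-/- lung 2, and the median was -0.15 without *Myh10*-/- lung 1. These fits leave 1 lung in a genotype, which is assumed to vary like the others.

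No source ties the number of a lung to a litter or day, so whether the numbers pair the lungs is not known. The deviations of same-numbered lungs had a correlation across genes of -0.214 (-0.0187 without chromosomes X and Y). Genes are not independent replicates, and this correlation cannot exclude a shared litter or batch. With the replicate block 466 genes were lower, 244 higher and 2 markers (*Kcnj8* and *Ndufa4l2*), 2 recruitment genes and 2 endothelial genes called lower. With the crossed pairing as a block, chosen after seeing the data, which joins lungs alike in *Xist* and *Ddx3y* and so of the same sex pattern, 320 genes were lower, 95 higher, and 2 markers (*Abcc9* and *Ndufa4l2*) and 1 other mural cell gene called lower.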
